A study of Mus musculus with 22 samples.

Results

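The cells described here were endothelial cells that held von Willebrand factor (Vwf) transcripts in dissociated mouse organs, and 1054 such cell barcodes were found among 176676 tissue barcodes. They were selected on their own transcripts. A barcode had to hold 200 or more genes, and no more than 25% of its UMIs (unique molecular identifiers, each standing for 1 captured transcript) could be mitochondrial. It also had to hold at least 1 UMI in at least 2 of the endothelial junction and lumen genes Pecam1, Cdh5, Cldn5 and Egfl7, and at least 2 Vwf UMIs. No UMI was allowed of Ptprc (leukocytes), Epcam (epithelium), Mmrn1 (lymphatic endothelium), Stab2 (liver sinusoids) or Car4 (a lung capillary subset). Members with at least 1 UMI of Gja5, Gja4, Sox17 or Bmx were called arterial members (457), and the remaining 597 were called other members. The same endothelial gate without the Vwf condition held 10712 barcodes, of which 8485 had no Vwf UMI and 1173 had exactly 1.

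Von Willebrand factor, encoded by Vwf (ENSMUSG00000001930, chr6:125546774-125686679 on the plus strand, GRCm38), is the glycoprotein that tethers platelets to injured vessel wall and carries coagulation factor VIII in plasma. Endothelial cells store it in Weibel-Palade bodies, secretory granules that also hold the leukocyte receptor P-selectin (Selp). Its transcript is known to be uneven along the vascular tree and richer in veins and larger vessels than in most capillaries. Arteries are patterned by Notch and SoxF factors and joined by the connexins Gja4 and Gja5, whereas the orphan receptor Nr2f2 specifies veins.

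Single-cell RNA libraries came from dissociated organs that were pooled within a library and hashtagged: kidney, liver, lung and stomach, with epididymis in males and uterus in females. All tissue libraries came from aged mice (551 to 654 days) with the alleles Prom1-CreERT2 and Rosa26ZSG, in which the Prom1 promoter drives a tamoxifen-activated Cre. The wt group (5 libraries) carried no Nalcn deletion, the het group (2 libraries) was labelled Nalcn-het and the null group (2 libraries) Nalcn-null; Nalcn encodes a sodium leak channel. 2 further tissue libraries, a male and a female, had conflicting genotype labels and entered no comparison of genotypes. Wt 1 and 2 were from males of 571 days, wt 3 from a male of 608 days, wt 4 and 5 from females of 611 and 654 days, het 1 and 2 from males of 551 days, null 2 from a male of 552 days and null 3 from a female of 611 days. Because Cre follows Prom1, the genotype of a library does not say whether its endothelial cells had recombined. The organ of a barcode was not used, so an artery of the kidney and an artery of the lung were not separated. The labels named no animals, and p-values measure the spread between libraries, some of which may share a mouse.

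The 9 libraries with a genotype group held 8571019 to 139793927 UMIs, and 8 of them had at least 10 members; wt 5 had 13 endothelial barcodes and 1 member and was left out of the expression tests. Members had a median of 2041.5 UMIs (502 to 24236), against 1484 in endothelial barcodes without Vwf. Of the 1054 member barcode sequences, 51 (4.84%) also occurred in another tissue library, close to the 4.27% of all tissue barcodes, and 0 were members in 2 libraries. The library null 3, labelled female with a uterus in its pool, held the epididymal transcripts Spag11b (112 UMIs), Defb20 (122 UMIs) and Gpx5 (151 UMIs) within its member barcodes, together with 544 UMIs of the female transcript Xist. The series also held 11 blood libraries of the same Prom1-CreERT2 and Rosa26ZSG alleles. Of these, 10 were of sorted ZSG+ blood cells labelled ntCZC (2 wt, 4 het and 4 null libraries, 6 male and 4 female, 551 to 649 days) and 1 was of PBMCs from a wt male of 120 days. They held 0 members in 2788 barcodes that passed the gene and mitochondrial limits, which allows a share of up to 0.108% over the pooled libraries. For single libraries the limit ran from 0.442% (PBMCs, 679 barcodes) to 27.3% (ntCZC wt 3, 11 barcodes). Only 1 of the 2788 blood barcodes passed the endothelial gate, which allowed no Ptprc UMI, and 71 held a Vwf UMI.

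Of the markers given for these cells, Pecam1 was present in 903 members (85.7%), Sox17 in 287 (27.2%) and Gja5 in 107 (10.2%). Among arterial members, 310 held only 1 of the 4 arterial genes, 147 held at least 2 and 14 held all 4, and 175 were arterial by Sox17 alone. Of the 597 other members, 385 also had no UMI of the venous genes Slc6a2, Selp and Ackr1; these were 36.5% of all members. Lyve1, known from lymphatic and sinusoidal endothelium, was present in 497 members (47.2%). The members are therefore called Vwf-positive endothelial cells, and no vessel size is attached to them. Vwf itself had a median of 3 and a maximum of 36 UMIs per member, and 71 members held 10 or more. Just inside the threshold, the 438 members with exactly 2 Vwf UMIs had Gja5 in 8.68% and Sox17 in 26.7% of barcodes; just outside, the 1173 barcodes with 1 Vwf UMI had Gja5 in 6.05% and Sox17 in 28.7%.

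Among endothelial barcodes of the gate, which left out any with Car4, Stab2 or Mmrn1, Vwf-positive cells were a small part in every well-filled library. They made up 8.77% of endothelial barcodes in wt 1, 7.77% in wt 2, 11.6% in wt 3, 10.6% in wt 4 and 7.69% in wt 5. The shares were 13.2% in het 1, 7.61% in het 2, 7.67% in null 2 and 11.6% in null 3. The genotype groups overlapped, and the spread within a genotype (7.61% and 13.2% in het) was as wide as the spread between them. The arterial share of members was 63.2%, 45.9%, 34.4% and 44.8% in wt 1 to 4, 51.7% and 46.0% in het, and 27.7% and 41.8% in null. Wt 1 was highest and null 2 lowest, and the het libraries lay inside the range of wt.

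**Figure D1:**
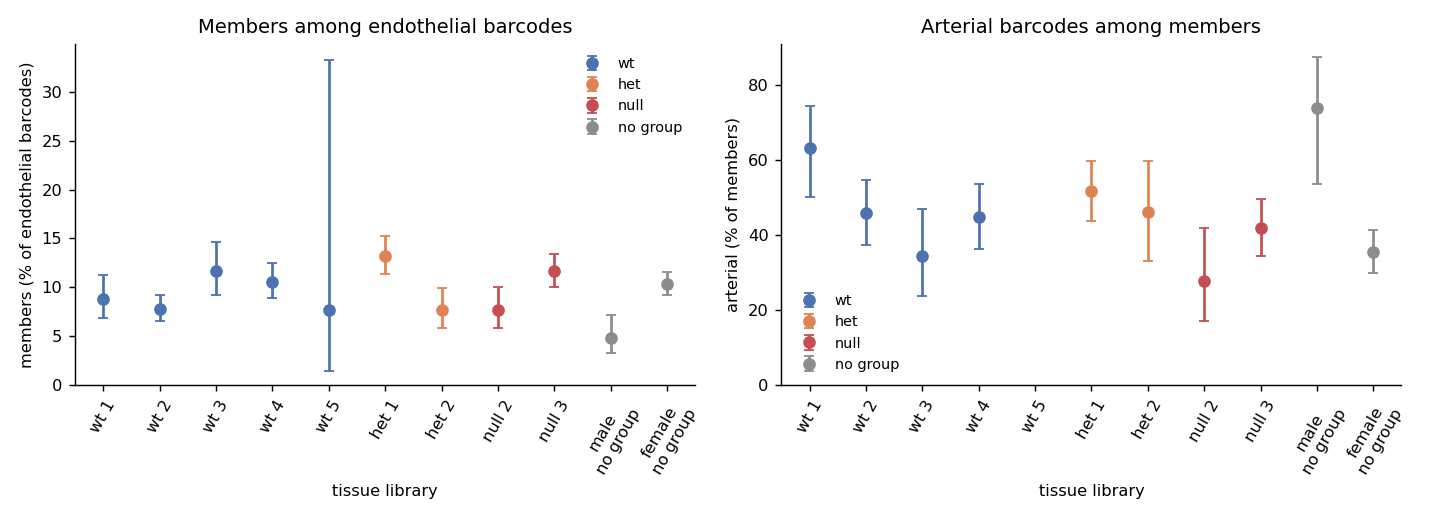
Members as a percentage of endothelial barcodes and arterial members as a percentage of members in each tissue library, with 95% Wilson intervals that cover counting error only. Member shares lie between 7.61% and 13.2% in the 9 libraries with a genotype group, and arterial shares between 27.7% and 63.2% in the 8 of these with at least 10 members.

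The first comparison asked how Vwf-positive cells differ from endothelial cells of the same libraries with no Vwf UMI. UMIs were summed per library and set and tested with edgeR's quasi-likelihood test with the library as a block and Benjamini-Hochberg adjustment. The genes of the rule were left out. Members were higher in 12 of 17 tested venous genes, 8 of 11 elastic matrix genes and 13 of 15 immediate early and heat shock genes, and lower in 5 of 7 kidney endothelial and 6 of 11 basement membrane genes. Of 6937 genes, 987 were called at an adjusted p under 0.05 (14.2%), 594 higher (8.56%) and 393 lower (5.67%). Which direction held more calls depended on the filter on low counts: 579 were higher and 675 lower among the 11018 genes with at least 10 UMIs in at least 3 sums, a looser filter here, and 612 and 839 among 19746 genes with no filter. Since the cells were sorted on a transcript of the same barcodes, these calls describe the selected set and are not independent evidence for it. The gene lists were chosen with earlier results of these data known, so their counts and medians are descriptions. They also share genes and are not separate signals. Selp, Sele and Vcam1 are in the venous and the leukocyte adhesion lists. Bgn is in the venous and elastic matrix lists, and Fbln5 and Ltbp4 are in the arterial and elastic matrix lists. In summed counts, fewer cells with a transcript and less transcript per cell cannot be told apart. Levels below are UMIs scaled to a library total of 1000000 (CPM), given as the lowest, median and highest of 8 libraries, and changes are log2 with their standard error (SE).

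Genes of the venous list carried the largest differences, with 12 of 17 tested genes higher, 1 lower and a median change of 2.25 against -0.010 over all genes. Slc6a2, the noradrenaline transporter, stood at 82.3, 245 and 633 CPM in members and 0, 1.42 and 16.7 CPM in endothelium without Vwf, and the sets did not overlap (log2 change 6.52, SE 0.23, adjusted p = 8.6e-15). Selp stood at 82.1, 233 and 488 CPM against 1.83, 6.45 and 26.6 CPM (log2 change 4.81, SE 0.29). Prss23, a secreted serine protease, stood at 295, 449 and 651 CPM against 46.9, 54.9 and 84.7 CPM (log2 change 2.87, SE 0.10). In all 3 genes every member sum exceeded every sum without Vwf. The adhesion receptor Vcam1, which binds leukocyte integrins, followed at 195, 402 and 631 CPM against 59.6, 83.4 and 119.7 CPM (log2 change 2.25, SE 0.14). Nr2f2, which specifies veins, was higher by a smaller amount and with overlapping sets, at 103, 202 and 330.2 CPM against 88.8, 116 and 139 CPM (log2 change 0.80, SE 0.14). Emcn, a mucin-like glycoprotein of veins and capillaries, was the venous-list gene that was lower, at 173, 288 and 682 CPM against 402, 879 and 1441 CPM (log2 change -1.56, SE 0.10). The other tested genes of the list, Ephb4, Nrp2, Il1r1 and Tshz2, were not called. Ackr1, a chemokine-binding receptor of postcapillary venules, did not pass the low-count filter and was found in 23 members (2.18%).

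Arterial genes moved in both directions. Of the 4 genes of the arterial split, which did not choose the members, Gja5 (log2 change 2.41, SE 0.17), Bmx (1.83, SE 0.27) and Gja4 (0.57, SE 0.13) were higher and Sox17 was lower (-0.56, SE 0.11). Gja5 stood at 57.7, 75.9 and 151 CPM against 10.1, 17.8 and 20.1 CPM, and the sets did not overlap. Sox17 stood at 78.4, 159 and 270.5 CPM against 182, 244 and 417 CPM and was lower in members in 8 of 8 libraries. The Gja4 and Sox17 calls were lost, with the same direction, when barcodes were thinned to 1000 UMIs or the library term was dropped. In the wider arterial list 9 of 20 tested genes were higher and 3 lower, with a median change of 0.17. The growth factor Vegfc (2.102, SE 0.14), the Notch target Hey1 (1.23, SE 0.21) and the Notch ligand Jag1 (0.71, SE 0.13) were among those higher, and Igfbp3 (-2.47, SE 0.19), Cxcr4 (-0.71, SE 0.20) and the Notch ligand Jag2 (-0.68, SE 0.16) were lower. The arterial ligands Efnb2 (-0.02, SE 0.11) and Dll4 (-0.24, SE 0.14) were not called.

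Genes of elastic fibres and their associated matrix were higher, with 8 of 11 tested genes called and none lower, and a median change of 1.15. Cytl1, a secreted cytokine-like protein of cartilage placed in this list with matrix genes, stood at 41.2, 374 and 643 CPM in members and 0.913, 8.11 and 49.8 CPM without Vwf (log2 change 5.34, SE 0.22). The calcification inhibitor Mgp stood at 1145, 1564 and 2746 CPM against 239, 339 and 676 CPM (log2 change 2.19, SE 0.16). Elastin (Eln) stood at 155, 246 and 473 CPM against 41.5, 64.4 and 94.6 CPM (log2 change 2.04, SE 0.14). For Mgp and Eln the lowest member library was above the highest library without Vwf. The elastic-fibre proteins Fbln5 (1.15, SE 0.11), Fbln2 (1.03, SE 0.16) and Ltbp4 (1.23, SE 0.11) were also higher. Basement membrane genes went the other way, with 0 of 11 tested genes higher and 6 lower. The heparan sulfate proteoglycan perlecan (Hspg2, -1.70, SE 0.16) had the largest change of these, and Sparc (-0.65, SE 0.09) and the collagens Col4a1 (-0.37, SE 0.12) and Col4a2 (-0.49, SE 0.14) smaller ones. The Col4a1 call was lost under 11 alternatives and is uncertain. Of the mural cell markers 0 of 5 tested genes were higher and 4 lower, with a summed level of 73 to 595 CPM against 159 to 666 CPM.

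The partners of Vwf in haemostasis and in its storage granule did not move as a block. In the haemostasis list 3 of 12 tested genes were higher, namely the protein C cofactors thrombomodulin (Thbd, log2 change 0.70, SE 0.08) and Procr (0.83, SE 0.17) and the tetraspanin Cd9 (0.61, SE 0.09), and Plat, tissue plasminogen activator, was lower (-0.62, SE 0.12). F8, coagulation factor VIII, had a change of -0.50 (SE 0.19) and was not called. In the Weibel-Palade list 5 of 12 were higher and 3 lower. Besides Selp, the granule regulators Myrip (1.07, SE 0.16) and Rab27a (0.86, SE 0.25), the vasoconstrictor endothelin 1 (Edn1, 1.03, SE 0.12) and its converting enzyme Ece1 (0.54, SE 0.09) were higher. The granule tetraspanin Cd63 was lower (-0.49, SE 0.14). None of the 8 megakaryocyte and platelet genes passed the count filter, and their summed level was 3.68 to 153 CPM in members and 17.8 to 125.9 CPM without Vwf. These genes were therefore not tested, and the part of platelet RNA was not tested.

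Genes that set vessel tone were mostly higher, 8 of 10 tested, with 2 lower and a median change of 0.89. Ptgs2, an inducible prostaglandin synthase, stood at 23.5, 147 and 284 CPM against 6.3, 16.1 and 80.5 CPM (log2 change 2.51, SE 0.35). Prostacyclin synthase (Ptgis, 1.97, SE 0.21), angiotensin converting enzyme (Ace, 1.21, SE 0.20) and endothelial nitric oxide synthase (Nos3, 0.39, SE 0.12) were also higher, and the endothelin receptor Ednrb was lower (-1.46, SE 0.16). Leukocyte adhesion genes had 6 of 12 higher and none lower, including the E-selectin gene Sele (3.29, SE 0.36), Icam1 (1.17, SE 0.10) and Jam2 (1.20, SE 0.12). In the BMP and TGF-beta list 8 of 16 were higher and 3 lower. The ligand Bmp4 stood at 75.4, 97.2 and 151 CPM against 5.57, 13.6 and 38.2 CPM without overlap (log2 change 2.77, SE 0.21). The type 1 receptor Acvrl1 (0.66, SE 0.11), the type 2 receptor Bmpr2 (0.75, SE 0.11) and the inhibitory Smad6 (1.12, SE 0.14) were higher, and Tgfb2 (-0.86, SE 0.22) and Tgfbr2 (-0.36, SE 0.10) were lower. Of the flow-response genes 5 of 9 were higher, with the shear-induced factors Klf4 (0.80, SE 0.09) and Klf2 (0.37, SE 0.08) among them, while the connexin Gja1 was lower (-1.79, SE 0.17).

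Capillary genes were split. Of 11 tested, Hpgd (log2 change 1.46, SE 0.17), Sema3c (0.96, SE 0.17), Cd36 (0.80, SE 0.12), Kit (0.63, SE 0.19), Aqp1 (0.59, SE 0.08) and Gpihbp1 (0.55, SE 0.10) were higher. Cd300lg (-2.17, SE 0.15), Rgcc (-2.15, SE 0.16), Fabp4 (-1.24, SE 0.24) and the diaphragm protein Plvap (-0.60, SE 0.12) were lower. Kidney endothelial genes were mostly lower, 5 of 7, led by Igfbp5 at 129, 263 and 524 CPM in members against 969, 2760 and 6340 CPM (log2 change -3.22, SE 0.17), with Tspan7 higher (0.95, SE 0.14). Of the liver sinusoid genes 2 of 8 were higher and 3 lower; Lyve1 was higher (2.43, SE 0.16), and Fcgr2b (-2.16, SE 0.32) and Dnase1l3 (-2.04, SE 0.24) were lower. Transcription factors that mark position in the body differed as well, in both directions, with 3 of 9 tested genes higher. The lung and foregut mesenchyme factor Foxf1 (1.12, SE 0.19), Hoxa5 (1.26, SE 0.17) and Gata6 (2.61, SE 0.22) were higher, and Irx3 (-2.49, SE 0.18), Ebf1 (-1.75, SE 0.13) and Hoxb7 were among those lower. The organs were pooled, and the part of organ of origin in these differences was not tested.

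**Figure D2:**
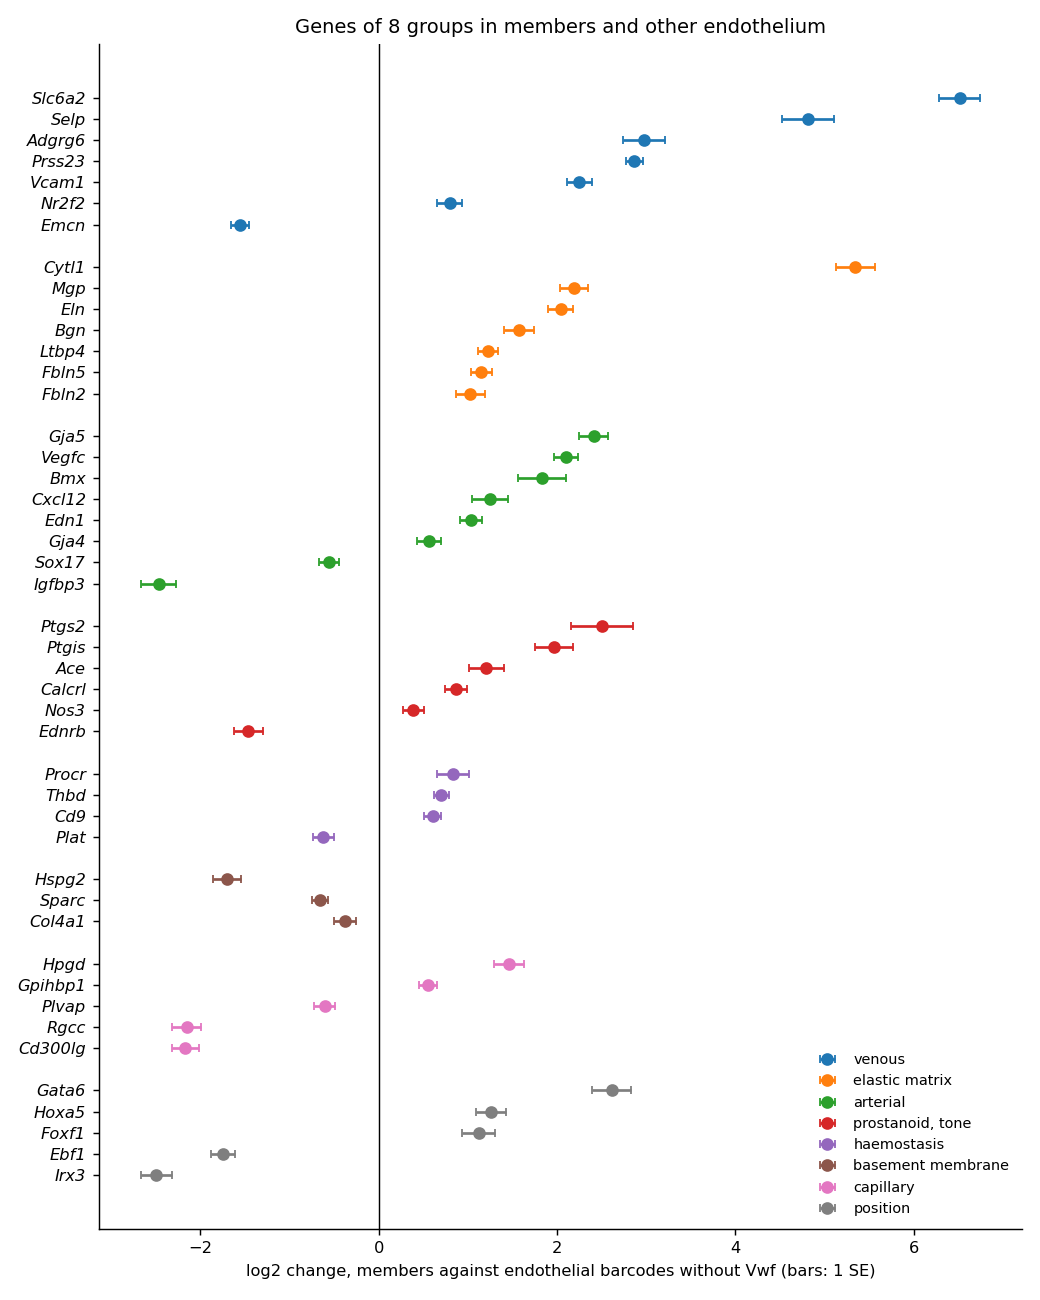
Log2 change with 1 SE of genes from 8 gene groups in members against endothelial barcodes without Vwf (8 libraries). The x axis is the change and each row a gene, coloured by group; Slc6a2 lies at 6.52 and Eln at 2.04 above no change, and Irx3 at -2.49 and Hspg2 at -1.70 below it.

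Immediate early and heat shock genes, which dissociation is known to raise, were higher in 13 of 15 tested and lower in none, with a median change of 0.90. Fos changed by 1.17 (SE 0.12), Egr1 by 1.14 (SE 0.15), Ier3 by 1.19 (SE 0.14) and Hspa1a by 0.75 (SE 0.10). Their part in the other differences was not tested. Several lists of other cell types had no gene called higher in members: 0 of 7 leukocyte, 0 of 5 epithelial, 0 of 3 hepatocyte, 0 of 4 erythroid and 0 of 4 epididymal genes. Called lower were 4, 2, 0, 4 and 3. The gate allowed no UMI of Ptprc, Epcam, Mmrn1, Stab2 or Car4 in either set, and such a gate is stricter in deeper barcodes. Members were deeper, so the leukocyte, epithelial, lymphatic, liver sinusoid and aerocyte values are limited by the selection. The summed leukocyte level was 57.4 to 1657 CPM in members and 107 to 2624 CPM without Vwf, and the summed epithelial level 208 to 1409 CPM and 336 to 9090.2 CPM. Among 7 fibroblast genes Dpt was higher and Pi16 lower. In the list of mesenchymal transition genes Fstl1 (0.94, SE 0.11) and Vim (0.40, SE 0.09) were higher, 3 of 14 were lower and 9 were not called. Interferon and MHC genes were mostly not called, 12 of 15. In the aerocyte list 0 of 5 were higher, and Ednrb and the VEGF receptor Kdr (-1.26, SE 0.09) were lower. In the lymphatic list Lyve1 was higher and the receptor Flt4 lower (-0.67, SE 0.17), and the defining lymphatic gene Prox1 did not pass the filter. No proliferation gene was called of 1 tested, and no mesothelial gene could be tested.

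By size alone, and among genes of at least 50 CPM in the higher set, the largest changes upward after Slc6a2, Cytl1 and Selp were in Cpe, a prohormone-processing enzyme (log2 change 3.58, SE 0.24), the adhesion molecule Amigo2 (3.10, SE 0.17), Samd5 (3.04, SE 0.18) and the adhesion G protein-coupled receptor Adgrg6 (2.98, SE 0.24), and Prss23 came next; Cpe, Amigo2 and Adgrg6 are venous-list genes. The largest changes downward were in the noncoding 3110099E03Rik (-4.00, SE 0.28), the neuropeptide gene Calca (-3.51, SE 0.30), the tip cell proteoglycan Esm1 (-3.41, SE 0.22), Thbs2 (-3.38, SE 0.31), the interferon-induced Rsad2 (-3.32, SE 0.16), Igfbp5, Btnl9 (-3.01, SE 0.20) and the immunoglobulin gene Ighm (-3.002, SE 0.46). Rsad2 stood at 19, 38.6 and 112 CPM in members and 174, 533 and 773 CPM without Vwf, with no overlap. In the interferon and MHC list Ifit3 and Irf7 were also lower, Ifitm3 was higher, and 12 of 15 tested genes were not called.

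Of 155 genes called in this comparison that were in a list or among the largest changes, 76 stayed past the threshold under every alternative that tested them, and 0 changed direction. Besides Col4a1, the calls of Ddah2 of the vessel tone list (lost under 12 alternatives), Dpt (11), Nos3 (10), Igfbp7 of the Weibel-Palade list (9), Kit (8) and Cxcr4 (6) are uncertain. Of the 6937 genes tested, 370 were called without the library term. With every barcode thinned to 1000 UMIs after selection, an alternative added after the data were seen, 450 of 3363 were called, and 425 of these were among the 987.

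The members' genes followed the Vwf count in different ways when barcodes of the 8 libraries were pooled by Vwf UMIs (6141 barcodes with 0, 769 with 1, 286 with 2, 238 with 3 to 4, 180 with 5 to 9 and 63 with 10 or more). These pooled values have no replicate spread, and barcodes with more Vwf UMIs were also deeper. Slc6a2 went from 2.36 CPM at 0 Vwf UMIs to 21.5 at 1, 104 at 2, 158 at 3 to 4, 332 at 5 to 9 and 487 at 10 or more. Prss23 went from 58.1 through 134, 182, 306 and 614 to 949 CPM. Vcam1 went from 76.6 through 104, 153, 249 and 505 to 1099.9 CPM. These 3 genes were thus highest where Vwf was highest, and their steps continued past the threshold of 2. Hpgd instead was at 518 CPM with 0 Vwf UMIs and at 1389.5 CPM with 1, and lay between 1390.2 and 1541 CPM above that. Emcn was at 957 CPM with 0 Vwf UMIs, 297 with 1 and 295 to 444 above. Cd300lg was at 267 CPM with 0, 52.3 with 1 and 47.7 to 75.3 above. For Hpgd, Emcn and Cd300lg the step therefore lay between 0 and 1 Vwf UMIs. Fbln5 had its highest value, 222 CPM, at 3 to 4 Vwf UMIs and was at 176 CPM at 10 or more. The arterial share of these members was 43.0% at 2 Vwf UMIs, 46.2% at 3 to 4, 47.2% at 5 to 9 and 46.03% at 10 or more. The Wilson intervals overlapped and cover counting error only. Median depth rose from 2010.5 UMIs at 2 Vwf UMIs to 3841 at 10 or more, so depth and Vwf count were not separated. The genes of the arterial split had no steady course in pooled CPM over the bins from 2 to 10 or more Vwf UMIs. Gja5 was at 91.1, 76.0, 97.1 and 39.4 CPM and Gja4 at 107, 161, 110 and 78.8 CPM. Sox17 was at 178, 205, 165 and 100 CPM, and Bmx at 30.4, 36.6, 23.0 and 93.2 CPM. The last bin held 11 Gja5, 22 Gja4, 28 Sox17 and 26 Bmx UMIs.

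**Figure D3:**
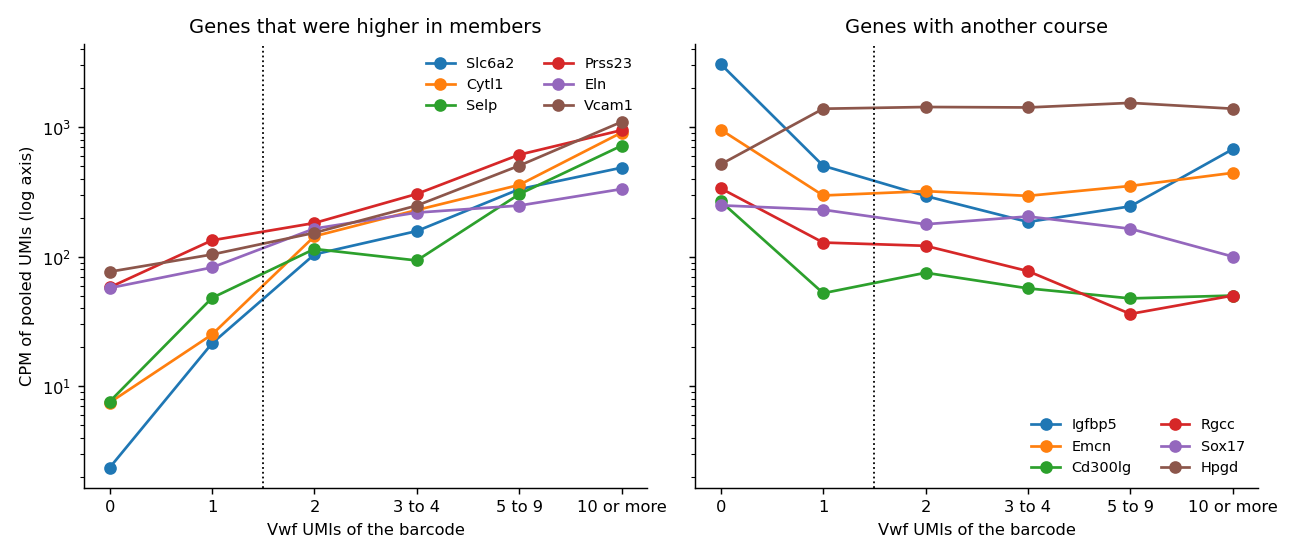
Pooled level in CPM (log axis) of selected genes in endothelial barcodes of 8 libraries by number of Vwf UMIs; the dotted line marks the threshold of 2 UMIs and no replicate error is shown. Slc6a2 rises from 2.36 to 487 CPM across the bins, while Cd300lg drops from 267 to 52.3 CPM between 0 and 1 UMI.

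The second comparison set arterial against other members within each library, without the genes of the split. Arterial members were higher in 5 of 14 genes of the arterial list, Mecom, Fbln5, Jag1, Edn1 and Tm4sf1, and lower in 4 of 14 genes of the venous list, Slc6a2, Prss23, Tshz2 and Csrp2. The test called 26 of 2325 genes (1.12%), 7 higher (0.301%) and 19 lower (0.817%), in 8 libraries with the library as a block. The split was made on transcripts of the same barcodes, so these calls describe it and are not independent evidence for it. Arterial members were deeper (median 2591 against 1737 UMIs) and had fewer mitochondrial UMIs (median 10.9% against 13.1%), and a deeper barcode is more likely to show 1 UMI of any arterial gene. With barcodes thinned to 1000 UMIs, 638 genes could be tested, 12 of the 26 among them, and 1, Slc6a2, was called.

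In the arterial list 5 of 14 tested genes were higher and none lower, and the median change was 0.76 against -0.015 over all genes. The red cell (erythroid) genes lay further apart, with a median change of 2.09 in 3 tested genes, of which 0 were called, and a summed level of 42.4, 6034 and 34132 CPM in arterial and 265, 495 and 23483 CPM in other members; their part was not tested. Mecom, a zinc finger transcription factor of arterial endothelium, stood at 52.2, 122 and 353 CPM in arterial and 22.4, 34.2 and 112 CPM in other members, and was higher in 8 of 8 libraries (log2 change 1.62, SE 0.25, adjusted p = 0.00698). Fbln5, which links elastic fibres to cells, stood at 149, 276 and 636 CPM against 56.2, 94.3 and 149 CPM (1.41, SE 0.26, adjusted p = 0.0144). Both were thus higher within each library although their ranges touched or overlapped across libraries. Jag1, the Notch ligand of arterial walls, stood at 90.6, 125.7 and 198 CPM against 14.5, 68.8 and 81.6 CPM without overlap (1.02, SE 0.23, adjusted p = 0.0423). Edn1 (0.75, SE 0.16), Tm4sf1 (0.67, SE 0.14), the secreted Fam3c (1.14, SE 0.20) and the Golgi protein Golim4 (0.83, SE 0.17) completed the 7. The arterial ligand Efnb2 (0.95, SE 0.24, adjusted p = 0.0791) and Sema3g (1.03, SE 0.26, adjusted p = 0.0924) missed the threshold, with Efnb2 higher in 8 and Sema3g in 7 of 8 libraries. Of 8 elastic matrix genes only Fbln5 was called; Eln (0.81, SE 0.27) and Mgp (0.85, SE 0.25) were not.

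In the venous list 4 of 14 tested genes were lower in arterial members and none higher, with a median change of -0.89. Slc6a2 stood at 56.1, 162 and 365 CPM in arterial and 86.5, 331 and 867 CPM in other members and was lower in 8 of 8 libraries (log2 change -1.11, SE 0.19, adjusted p = 0.0132). Prss23 stood at 219, 316 and 365 CPM against 380.2, 611 and 877 CPM, with no overlap (-0.99, SE 0.13, adjusted p = 0.00294). The zinc finger factor Tshz2 (-1.10, SE 0.25) and the LIM protein Csrp2 (-0.88, SE 0.20) were also lower, but Tshz2 lost the call under 12 alternatives and Csrp2 under 17, and both are uncertain. Nr2f2 stood at 45.3, 117 and 368 CPM against 107, 293 and 464 CPM and was not called (-1.09, SE 0.28, adjusted p = 0.0937), and Selp was not called either (-0.52, SE 0.38). Car8, a carbonic anhydrase-related protein, had the largest change downward, at 47, 56.5 and 141 CPM against 72.6, 176 and 448 CPM (-1.63, SE 0.26, adjusted p = 0.00698). It was lower in 8 of 8 libraries although the ranges overlapped.

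**Figure D4:**
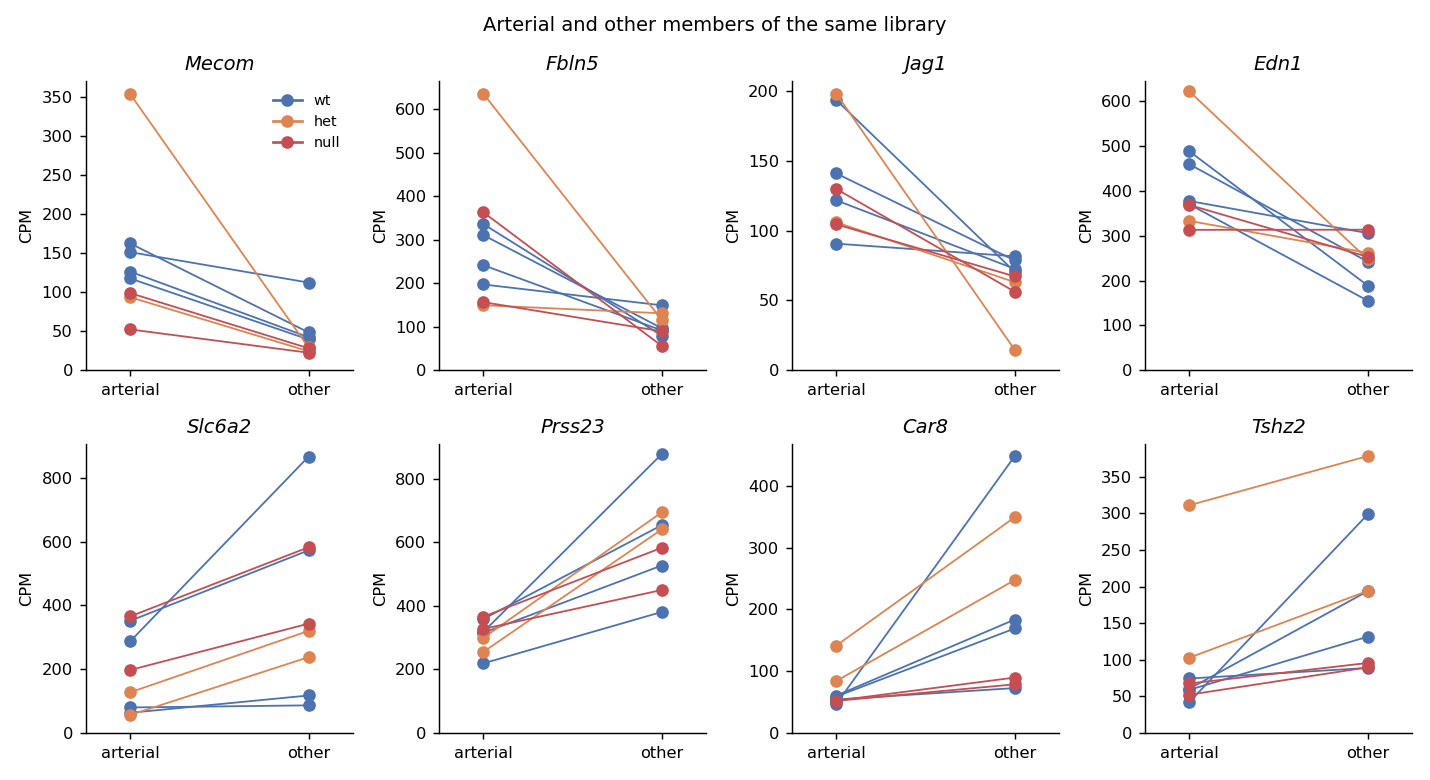
Level in CPM of 8 genes in the arterial and other members of each of 8 libraries, with lines joining the sums of a library. Mecom, Fbln5 and Jag1 lie higher in arterial members in 8 of 8 libraries, and Slc6a2, Prss23, Car8 and Tshz2 lower.

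The remaining lower calls included genes that are known from kidney tubule and plasma cells: Fxyd2 (log2 change -1.36, SE 0.29), Gatm (-1.12, SE 0.20), Tmem27 (-1.16), Gpx3 (-0.63, SE 0.12) and Igkc (-1.58, SE 0.29). Thinned to 1000 UMIs, in the 9 libraries with a genotype group, Gatm was present in 8.01% of 337 arterial and 17.2% of 378 other members, against 15.9% of 22469 leukocyte barcodes. Gpx3 was present in 51.9% and 62.2% of these members and 62.8% of leukocytes. Igkc was present in 22.3% and 22.0% of these members and 38.2% of leukocytes. All 3 transcripts were thus also found in a sizeable share of leukocyte barcodes. These barcodes held Ptprc and no endothelial gene of the rule, and B and plasma cells were not taken out. Such cells make Igkc themselves, so its share in leukocytes is no measure of free RNA. The part of free RNA in these calls was not tested. Slc6a2 was present in 10.7% of arterial and 22.8% of other members, 0.255% of endothelial barcodes without Vwf and 0.0534% of leukocytes. Prss23 was present in 18.1% and 32.0% of members, 4.61% without Vwf and 0.65% of leukocytes. Thinning left out 10 arterial and 43 other members of under 1000 UMIs; without thinning, Slc6a2 was present in 51 of 347 arterial (14.7%) and 114 of 421 other members (27.1%) of these libraries, and Prss23 in 134 (38.6%) and 193 (45.8%). Transcripts of the mitochondrial genome were lower as well (mt-Co2, -0.32, SE 0.06), beside the lower mitochondrial share of arterial members.

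Transcripts of the arterial split and of venous genes were found in the same barcodes, each counted from 1 UMI. For reference, 457 of all 1054 members were arterial by the split. Sox17, one of its genes, was also present in 23.5% of endothelial barcodes without Vwf. Of 330 members (31.3%) with Slc6a2, Selp or Ackr1, 118 (35.8%) were arterial by the split, and 123 members held Eln together with any of those 3 genes. Of 206 members with Cytl1, 99 were arterial (48.1%), and of 261 with Eln, 129 were (49.4%). Doublets were not removed, and 138 members (13.1%) were among the barcodes with the highest doublet scores, against 15.0% of endothelial barcodes without Vwf. The number of called genes fell to 14 without them, of which 12 were among the 26, to 10 under the study's own limits on genes and mitochondrial UMIs, and to 5 without wt 2 or without null 3. It rose to 47 when Sox17 alone no longer made a member arterial, an alternative added after the data were seen, and 19 of the 26 were among these. None of the 26 genes kept its call under every alternative that tested it, and 205 of 512 values under alternatives missed the threshold, with 0 changes of direction. Mecom kept the call under 15 alternatives, Car8 under 17 and Slc6a2 under 20, and each lost it under 1, dropping the library term. Mecom and Car8 could not be tested with thinned barcodes, so their calls were not checked against depth in that way. Prss23 lost the call under 1, the thinned barcodes. Fbln5 and Fam3c lost it under 3 each, Jag1, Golim4 and Tm4sf1 under 9 each and Edn1 under 10.

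The third comparison asked whether members differed between genotypes. Nalcn was hardly present: 1 UMI in wt 4 and 0 in the members of the 7 other libraries, so the deletion could not be checked in these cells. With sex in the fit, 8 libraries and 4 residual degrees of freedom, 0 of 5808 genes were called in het against wt and 0 in deleted (het and null together) against wt (0% each). 1 gene was called in null against wt (0.0172%). At an unadjusted p under 0.05 there were 327 genes in het (5.63%), 247 in deleted (4.25%) and 224 in null (3.86%), and DESeq2 called 1, 2 and 2. The calls were 118, 58 and 34 with no low-count filter, and 31, 16 and 1 with a replicate block, in the same order. The fit with the replicate block left only 1 residual degree of freedom, so its calls are uncertain. The median SE of a log2 change was 0.38 in het, 0.32 in deleted and 0.47 in null. Age was not in the fit. The het libraries were of 551 days and the wt libraries of 571 days or more. Het therefore cannot be told apart from age. Data were also simulated for this design, with the same spread set for every gene. In deleted against wt, 82.9% of tested genes changed by a log2 of 2 were recovered. For a log2 of 1 the share was 24.4%, so most such changes were missed in this simulated setting.

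The gene called in null against wt was Spag11b, an epididymal defensin-like gene. It stood at 14.7, 11.1, 0 and 0 CPM in wt 1 to 4, at 47.4 and 21.5 CPM in het, at 157 CPM in null 2 and at 302 CPM in null 3 (log2 change 4.80, SE 0.64, adjusted p = 0.0195). Defb20 (4.04, SE 0.64) and Gpx5 (4.21, SE 0.74), also epididymal, were not called, and stood at 157 and 110 CPM in null 2 and 329 and 408 CPM in null 3 against at most 29.4 CPM in wt. All 3 were highest in null 3, whose label names a uterus and no epididymis. Without null 3 or without wt 4 the test called 0 genes.

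No gene of the endothelial lists was called between genotypes in the fit with sex. Alternatives did call some: of the 234 tested genes of all lists, 29 were called under at least 1 alternative in het against wt, 26 of them with no low-count filter and 10 with the replicate block, and 21 in deleted against wt, 17 of them with no low-count filter and 7 with the block. In null against wt 10 were called under at least 1 alternative, Spag11b among them, all 10 with no low-count filter and 0 with the block. Of the same 234 genes, the deleted and wt libraries did not overlap in 8 (3.42%, against 3.2% of all 5808 tested genes), het and wt did not in 41 (17.5%, against 14.3%) and null and wt did not in 30 (12.8%, against 14.3%). Igfbp5, Zfp36, Fabp4 and Clec4g are examples of these, chosen after their values were seen. Igfbp5 stood at 470, 335, 524 and 379 CPM in wt, 192 and 129 CPM in het and 188 and 154 CPM in null. Zfp36, an RNA-binding immediate early protein, stood at 585, 621, 950 and 1681 CPM in wt, 1861 and 2323 CPM in het and 2492 and 1986 CPM in null. The wt libraries did not overlap the deleted ones in either gene, and neither was called (deleted against wt: Igfbp5 -1.31, SE 0.24, adjusted p = 0.226; Zfp36 1.30, SE 0.29, adjusted p = 0.421), although across the alternatives the adjusted p ran from 6.66e-05 to 0.972 for Igfbp5 and from 4.24e-05 to 0.971 for Zfp36. Fabp4, a fatty acid carrier of capillaries, stood at 891, 497, 1077 and 154 CPM in wt, 2153 and 2237 CPM in het and 549 and 310.4 CPM in null. The liver sinusoid lectin gene Clec4g stood at 0, 0, 24.3 and 7.36 CPM in wt and 56.9 and 200.8 CPM in het. Both het libraries lay above the 4 wt libraries in these genes, and neither was called (het against wt: Fabp4 1.54, SE 0.34, adjusted p = 0.317; Clec4g 4.64, SE 0.94, adjusted p = 0.317), although across the alternatives the adjusted p ran from 5.37e-06 to 1 for Fabp4 and from 6.74e-11 to 1 for Clec4g. The 15 tested immediate early genes had a median change of 0.56 in deleted against wt and the 12 elastic matrix genes one of 0.43, against -0.027 over all genes, with 0 called. The 6 liver sinusoid genes had a median change of 0.58. Most lists of other cell types had medians further from 0 in the same comparison, also with 0 called: 2.44 in 4 epididymal, 1.80 in 3 hepatocyte, 0.70 in 6 fibroblast, -0.99 in 7 leukocyte, -1.11 in 3 mural and -1.79 in 4 erythroid genes and -4.19 in the 1 platelet gene tested, against -0.42 in 5 epithelial genes. Their part was not tested. Slc6a2 ranged from 82.3 to 633 CPM within wt alone, against 127 to 517 CPM in the 4 deleted libraries. Vwf was 979 to 1997 CPM in wt and 1457 to 2477 CPM in the deleted libraries; it was part of the rule and was not tested.

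**Figure D5:**
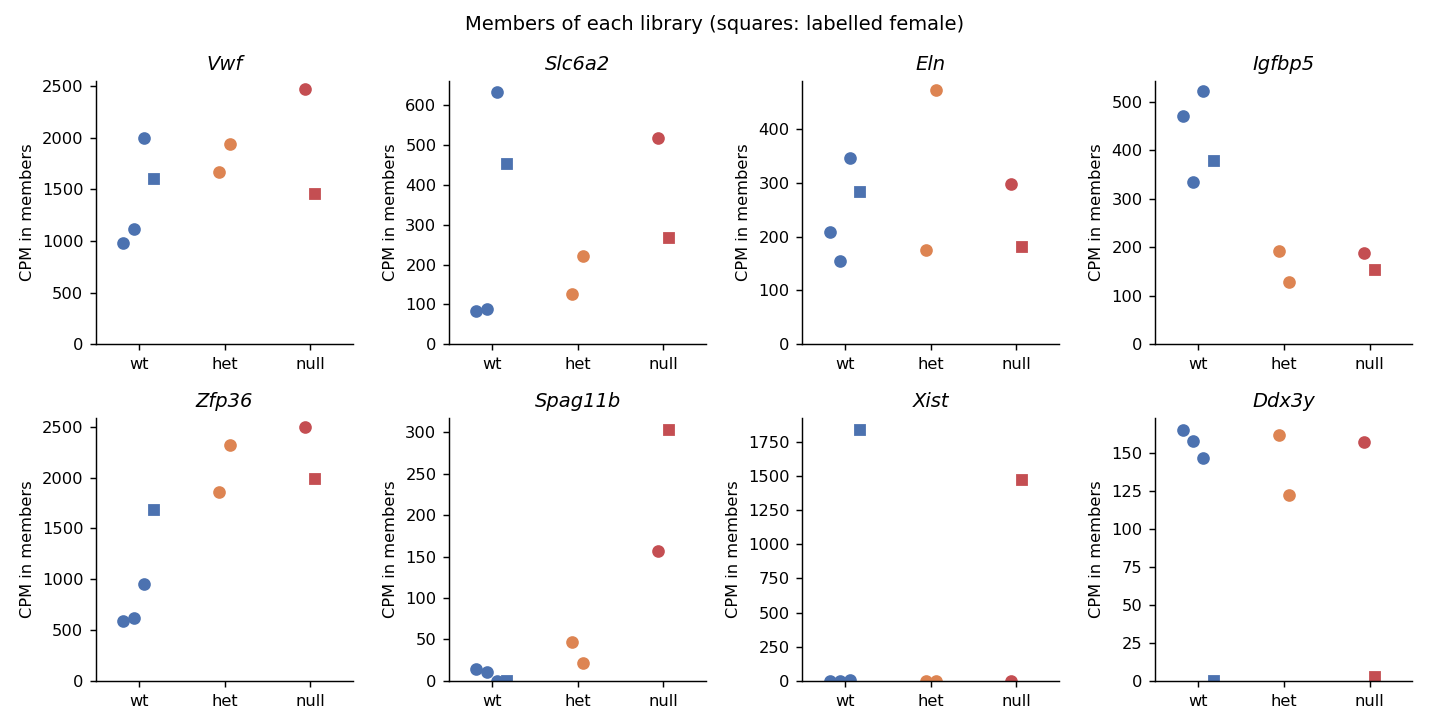
Level in CPM of 8 genes in the members of each library by genotype (wt 4, het 2 and null 2 libraries; squares are libraries labelled female). Igfbp5 lies at 335 to 524 CPM in wt and 129 to 192 CPM in het and null, Spag11b is highest in null 3, and Xist is present in the female libraries wt 4 and null 3.

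Between sexes 2 of 5808 genes were called (0.0344%): Xist, the X-inactivation transcript, at 1835 and 1468 CPM in the female libraries wt 4 and null 3 and at most 6.09 CPM in the males (log2 change 10.35, SE 0.52, adjusted p = 4.41e-07), and the Y-linked Ddx3y, at 0 and 2.7 CPM in the females and 122 to 165 CPM in the males (-6.33, SE 0.61, adjusted p = 0.00024). No other gene was called, and 295 genes (5.08%) had an unadjusted p under 0.05. Sex cannot be told apart from the uterus or epididymis in the pool.

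The proportion of members was compared between genotypes over libraries. Members made up 9.29% ± 1.75 (SD, n = 5) of endothelial barcodes in wt and 10.0% ± 2.81 (SD, n = 4) in deleted libraries, a difference of 0.723 percentage points (exact two-sided permutation test, p = 0.667, smallest possible p 0.0159). Arterial members made up 47.1% ± 11.9 (SD, n = 4) of members in wt and 41.8% ± 10.3 (SD, n = 4) in deleted libraries, a difference of -5.29 percentage points (exact two-sided permutation test, p = 0.571, smallest possible p 0.0286). Neither difference exceeded the spread between libraries. The member share difference was 0.325 points without wt 5, and its sign turned without het 1 (-0.327 points) and under the study's limits on genes and mitochondrial UMIs (-0.184 points). The sign of the arterial difference depended on Sox17 and on depth: it was 4.96 points when Sox17 alone did not count and 5.08 points when barcodes were thinned to 1000 UMIs before selection, and it was 0.0739 points without wt 1.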

How the data were processed

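The authors deposited UMI counts per gene and cell barcode for 22 libraries (10x matrices of 31053 genes), made per the labels with Cell Ranger 2.1.1 on the mm10 mouse genome; hashtag assignments to organs were not used here. Counts were used as deposited. Barcodes were selected in Python 3.11.15, summed per library over sets of at least 10 barcodes, and tested in R 4.3.3 with edgeR 4.0.16 (TMM, filterByExpr, quasi-likelihood test, Benjamini-Hochberg adjustment, threshold 0.05). DESeq2 1.42.0 was an alternative. Genes that made a set were left out of its test. Shares were compared with exact permutation tests (scipy 1.17.1) and have 95% Wilson intervals; intervals and limits for counts of 0 (3 counts) cover counting error only. Doublets were scored with Scrublet in scanpy 1.11.5, taking the top 0.8% per 1000 barcodes of a library up to 25%, and removed only as an alternative.

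The members and gene lists were chosen with earlier results of these data known, and counts over a list are descriptions. Named genes were list members and, per comparison, the 8 largest called changes in each direction with at least 50 CPM in the higher set and the same direction in every library. The fits were tested on data simulated with the same spread set for every gene. Of tested genes simulated at a log2 change of 1, 71.1% were recovered in arterial against other members and 52.3% in members against endothelium without Vwf. These shares describe the simulated setting and not the sensitivity for real genes.

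Alternatives were other size factors, DESeq2, other count filters, the study's own limits (over 100 and under 5000 genes, under 20% mitochondrial UMIs), Vwf thresholds of 3 and 1, doublets removed, at least 1000 UMIs or thinning to 1000 UMIs, a minimum of 20 barcodes, each library left out, libraries without a genotype added, no library or sex term, and the replicate number as a block. Totals per library were 63796 to 527265 UMIs for member sums, and 19152 UMIs in the smallest sum of arterial members. The result for 1 gene of the position list is not reported here.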

Additional observations from a re-analysis of the deposited data

Results flagged for a closer look

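Esm1, a proteoglycan of sprouting endothelium, stood at 76.4 CPM in the members of wt 1 and at 22.2 to 30.4 CPM in the other 3 wt libraries, a gap large for the group's range. Xist stood at 1835 CPM in wt 4 against 0 to 6.09 CPM in the other wt libraries, and Ddx3y at 0 CPM against 146 to 165 CPM; wt 4 is the female among them. In all, 34 values were examined against Dixon's 95% critical value, a limit set so that chance passes it in about 1 of 20 groups. The libraries that entered no genotype comparison also held members, 23 in the male and 263 in the female library.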

How the results depend on the processing

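Direction changed for none of the called genes recomputed under the alternatives (26 in arterial against other members, 155 in members against endothelium without Vwf, 1 in null and 2 in sex). Arterial against other members called 26 genes (7 higher and 19 lower), 50 higher and 76 lower with no low-count filter, and 49 with a filter of at least 10 UMIs in at least 3 sums (4360 genes tested against 2325, so looser here), 10 under the study's limits, 9 at 3 or more Vwf UMIs, 14 without doublets, 15 at 1000 or more UMIs, 2 without the library block and, added after the data were seen, 47 with an arterial split without Sox17 and 1 with thinned barcodes. Members against endothelium without Vwf called 987, and 370 without the library block and 450 thinned; higher and lower calls were 594 and 393, but 612 and 839 with no filter and 579 and 675 with the 10-UMI filter (11018 genes tested against 6937, again looser). In the genotype and sex comparisons the 10-UMI filter tested 5646 genes against 5808. Null against wt called 1, and 2 with DESeq2, 34 with no filter, 2 with the 10-UMI filter, 2 under the study's limits, 0 at 3 or more Vwf UMIs, 3 without doublets and 3 without the sex term. Het against wt called 0, and 1 with DESeq2, 118 with no filter, and 1 each under the study's limits, without doublets and at 1000 or more UMIs. Deleted against wt called 0, and 2 with DESeq2, 58 with no filter, 1 with the 10-UMI filter and 1 without the sex term. Female against male called 2, and 1 with DESeq2, 58 with no filter and 1 with the 10-UMI filter. The cause of these shifts was not tested.

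Leaving out 1 library at a time gave 5 to 27 calls in arterial against other members, 850 to 1038 in members against endothelium without Vwf, 0 to 7 in null, 0 to 3 in het, 0 to 3 in deleted and 0 to 4 in sex. It gave a difference of -9.50 to 0.0739 points in the arterial share and -0.327 to 1.52 in the member share. The arterial share difference of -5.29 was 5.08 with thinned barcodes and 4.96 without Sox17; the member share difference of 0.723 was -0.184 under the study's limits. In the genotype tests null 2 had 47 members and the fit 4 residual degrees of freedom.

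The labels tie no replicate number to an animal, and none of the 5 same-numbered pairs had deviations that correlated over 0.1 (-0.036 to 0.029), so the numbers were not taken as pairs. Het and null hold 2 libraries each, whose deviations are mirror images, and wt 4 has no partner, so this check is weak. A fit with the replicate number as a block left only 1 residual degree of freedom, so its calls are uncertain. With the replicate block, null called 1 gene, which was lower, and Spag11b was no longer called (edgeR adjusted p = 0.134); het called 31, deleted 16 and sex 0 genes, and the share tests gave p = 0.5 (arterial) and p = 1 (members) by exact permutation over 12 arrangements.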

Other observations

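The female library without a genotype group gave the largest number of members of any library, 263 of 2546 endothelial barcodes (10.3%), and 35.4% of them were arterial. The male library without a group gave 23 of 476 (4.83%), of which 73.9% were arterial (95% Wilson interval 53.5% to 87.5%). The members of the male library stood apart in their genes as well. Slc6a2 was at 0 CPM there and at 412 CPM in the female library, Mgp at 5169 and 1142 CPM, Cytl1 at 943 and 272 CPM, and Lyve1 at 157 and 727 CPM. Among immediate early genes, Egr1 was at 52.4 CPM (3 UMIs) in the male library, against 1050 to 4138 CPM in the 8 libraries with a genotype group and 3381 CPM in the female library, and Zfp36 was at 227 CPM against 585 to 2492 CPM. With both libraries added to the fits, arterial against other members called 29 genes, of which 24 were among the 26, and members against endothelium without Vwf called 1005, of which 886 were among the 987.

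Ion channel genes were sparse in Vwf-positive cells. Of 12 genes of the leak channel complex and of mechanosensitive, potassium and other channels, 4 could be tested against endothelium without Vwf. Scn3b, a sodium channel beta subunit, was higher at 43.7 ± 10.99 CPM against 25.5 ± 8.31 CPM (SD, n = 8 libraries; log2 change 0.86, SE 0.21, edgeR adjusted p = 0.00619), and the mechanosensitive Piezo2 was higher at 51.7 ± 12.2 CPM against 38.0 ± 12.9 CPM (0.54, SE 0.17, edgeR adjusted p = 0.0328). The Scn3b call was lost at a Vwf threshold of 3 UMIs and with the libraries without a genotype group added, and the Piezo2 call was lost under 11 alternatives. Piezo1 was at 88.8 ± 29.2 CPM and 85.7 ± 10.0 CPM and was not called. Unc80, which codes for a subunit of the leak channel complex, had 0 UMIs in members.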
